A study of Mus musculus with 4 samples.

Results

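Oxidative phosphorylation subunits are the nuclear-encoded proteins that make up respiratory complexes I to IV and the ATP synthase, complex V, of the inner mitochondrial membrane. Their genes were taken by name, as every gene with a single annotated symbol that belongs to the Nduf, Sdh, Uqcr, Cox4 to Cox8 or Atp5 families, which gave 79 of the 18194 named genes. They comprise 34 genes of complex I, 4 of complex II, 8 of complex III, 16 of complex IV and 17 of complex V. The rule uses gene names and no measured value, and it was set with earlier results of these data known. Of the 79 genes, 74 were expressed, meaning that their mean log2 level over the arrays was at least 4.855, the median of all probe sets.

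The study crossed diethylnitrosamine (DEN), a carcinogen that is activated in hepatocytes and initiates liver tumours in mice, with a diet containing 0.2% cholic acid (CA), a primary bile acid. Livers were taken at 10 months of age from mice given DEN and then the CA diet, from mice given DEN and then the control diet, from mice on the CA diet without DEN, and from mice on the control diet without DEN. Each of these 4 groups was measured on 1 Affymetrix array, hybridised with liver RNA of 3 to 5 pooled mice, and the sources used here do not give the strain, the sex, the dose of DEN or the share of tumour tissue in a pool. With 1 array per group there was no replicate and no test, and every difference below is a log2 difference between 2 pools, whose small number limits the precision. In a bulk sample fewer cells of a type and less RNA per cell cannot be told apart.

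Complex I passes electrons from NADH, and complex II those from succinate, to ubiquinone. Complex III hands them to cytochrome c and complex IV to oxygen, and complexes I, III and IV pump protons out of the matrix while they do so. Complex V lets the protons back through a rotating ring and uses the flow to make ATP. In liver this pathway supplies the ATP for urea and glucose synthesis, and complex II is also an enzyme of the TCA cycle. Transcription of the nuclear subunit genes is known to be driven by factors such as NRF1, the ETS factor GABP and YY1, together with the coactivators PGC-1 alpha and PGC-1 beta.

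The promoters of 4 members are shown because they hold the letters of such factors and belong to genes with large differences or with a difference opposite to the rest. Each is a RefSeq window of GRCm38.p6 read 5′ to 3′ along the gene, from 250 bases before to 50 bases after the start of transcription. Capitals mark the searched letters, which were GCGCATGCG for NRF1, CCGGAAGT for ETS factors and AAGATGGC for YY1, on either strand. Uqcr11, a small subunit of complex III, lies at chr10:80406772-80407071 on the minus strand and holds ETS letters and, on the opposite strand, NRF1 letters. Atp5k, subunit e of the ATP synthase, lies at chr5:108434350-108434649 on the minus strand, and its NRF1 letters read on both strands with a shift of 1 base. Ndufs7, a core subunit of complex I, lies at chr10:80249199-80249498 on the plus strand and Ndufc1, an accessory subunit of complex I, at chr3:51408906-51409205 on the minus strand, each with YY1 letters.
Uqcr11: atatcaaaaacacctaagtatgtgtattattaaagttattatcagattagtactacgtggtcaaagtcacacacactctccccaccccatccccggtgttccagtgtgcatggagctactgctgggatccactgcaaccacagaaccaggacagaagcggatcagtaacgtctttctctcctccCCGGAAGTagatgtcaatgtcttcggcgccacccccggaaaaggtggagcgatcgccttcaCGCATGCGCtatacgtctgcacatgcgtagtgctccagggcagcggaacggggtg
Atp5k: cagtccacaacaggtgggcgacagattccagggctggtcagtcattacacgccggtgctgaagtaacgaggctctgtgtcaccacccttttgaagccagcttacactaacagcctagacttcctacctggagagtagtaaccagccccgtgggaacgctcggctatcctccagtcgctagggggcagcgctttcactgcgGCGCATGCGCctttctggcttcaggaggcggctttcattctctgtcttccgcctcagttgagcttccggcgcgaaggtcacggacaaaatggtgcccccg
Ndufs7: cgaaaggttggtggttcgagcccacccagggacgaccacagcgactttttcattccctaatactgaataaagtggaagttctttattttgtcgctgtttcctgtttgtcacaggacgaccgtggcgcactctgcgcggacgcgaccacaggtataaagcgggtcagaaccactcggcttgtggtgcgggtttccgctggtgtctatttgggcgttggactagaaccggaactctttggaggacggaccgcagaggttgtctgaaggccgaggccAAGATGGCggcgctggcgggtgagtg
Ndufc1: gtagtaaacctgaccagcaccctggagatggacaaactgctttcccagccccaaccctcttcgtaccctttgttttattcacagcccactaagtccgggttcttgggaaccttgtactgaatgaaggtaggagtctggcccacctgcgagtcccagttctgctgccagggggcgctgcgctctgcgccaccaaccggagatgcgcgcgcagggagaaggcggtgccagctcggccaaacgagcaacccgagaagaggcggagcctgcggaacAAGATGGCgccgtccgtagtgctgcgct

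A window was on hand for 65 of the 79 genes, with 70 windows in all. The NRF1 letters stood in the window of 7 of these genes (10.8%), against 3.82% of 9334 other expressed genes and 1.95% of all 27025 genes with a window. The YY1 letters stood in 9 (13.8%), against 5.10% of other expressed genes and 3.19% of all. The ETS letters stood in 5 (7.69%), against 8.65% of other expressed genes and 4.31% of all. These are counts of letters and not of bound sites, and the YY1 letters contain ATG, the codon at which translation begins. Genes with the same letters did not all share a direction. Of those with the YY1 letters, Atp5j, Atp5pb, Ndufa3, Ndufa9, Ndufb8, Ndufs4 and Ndufs7 were lower on both DEN arrays than on both others. Atp5j2 was not, and Ndufc1 was higher on both. Of those with the NRF1 letters, Atp5k, Atp5l, Uqcr11 and Uqcrc1 were lower, Cox6a1 and Ndufa8 were not, and Atp5g2 was higher. Atp5k and Atp5g2 differed by -0.35 and 0.23 after DEN on the control diet. Of those with the ETS letters, Atp5h, Ndufs3, Uqcr11 and Uqcrh were lower, and Cox8a was not. Among all 74 expressed members 78.4% were lower on both DEN arrays.

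The arrays read liver: the 7 measured hepatocyte markers were among the brightest genes, and Alb, albumin, stood between 14.74 and 14.82. The 4 array medians over all probe sets lay between 4.84 and 4.86. The 18 probe sets for hybridization controls, which are added in equal amount to every array, differed in the DEN comparison on the CA diet by -0.06 to 0.37 with a median of 0.15, and on the control diet by -0.20 to 0.14 with a median of 0.04. The difference between the 3′ and the 5′ probe sets of a control transcript is a sign of RNA quality. For Actb it was 1.70 and 1.77 in DEN livers on the CA and the control diet, against 1.86 and 1.90 in livers without DEN, so that the groups did not overlap. For Gapdh it was 0.44 and 0.48 in DEN livers, against 0.51 and 0.44 in livers without DEN, and the groups overlapped. The part of RNA quality in the results was not tested.

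Most subunit genes were lower in the DEN livers, each by a small amount. The median difference over the 74 expressed genes was -0.23 for DEN against no DEN on the CA diet and -0.16 on the control diet, where all 11651 expressed genes had medians of 0.0043 and 0.035. On the CA diet 68 of the 74 lay below 0 (49.2% of all expressed genes did), and on the control diet 63 (45.2% of all). In 58 of the 74, or 78.4%, both DEN arrays were lower than both arrays without DEN, which held for 28.6% of all expressed genes. The opposite order was seen in 2, Ndufc1 and Atp5g2, or 2.70%, and in 34.3% of all genes. The DEN comparisons on the CA diet and on the control diet share no array, although all 4 arrays were normalised together. Across the 74 genes their differences had a Pearson correlation of 0.77, given as a description.

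**Figure D1:**
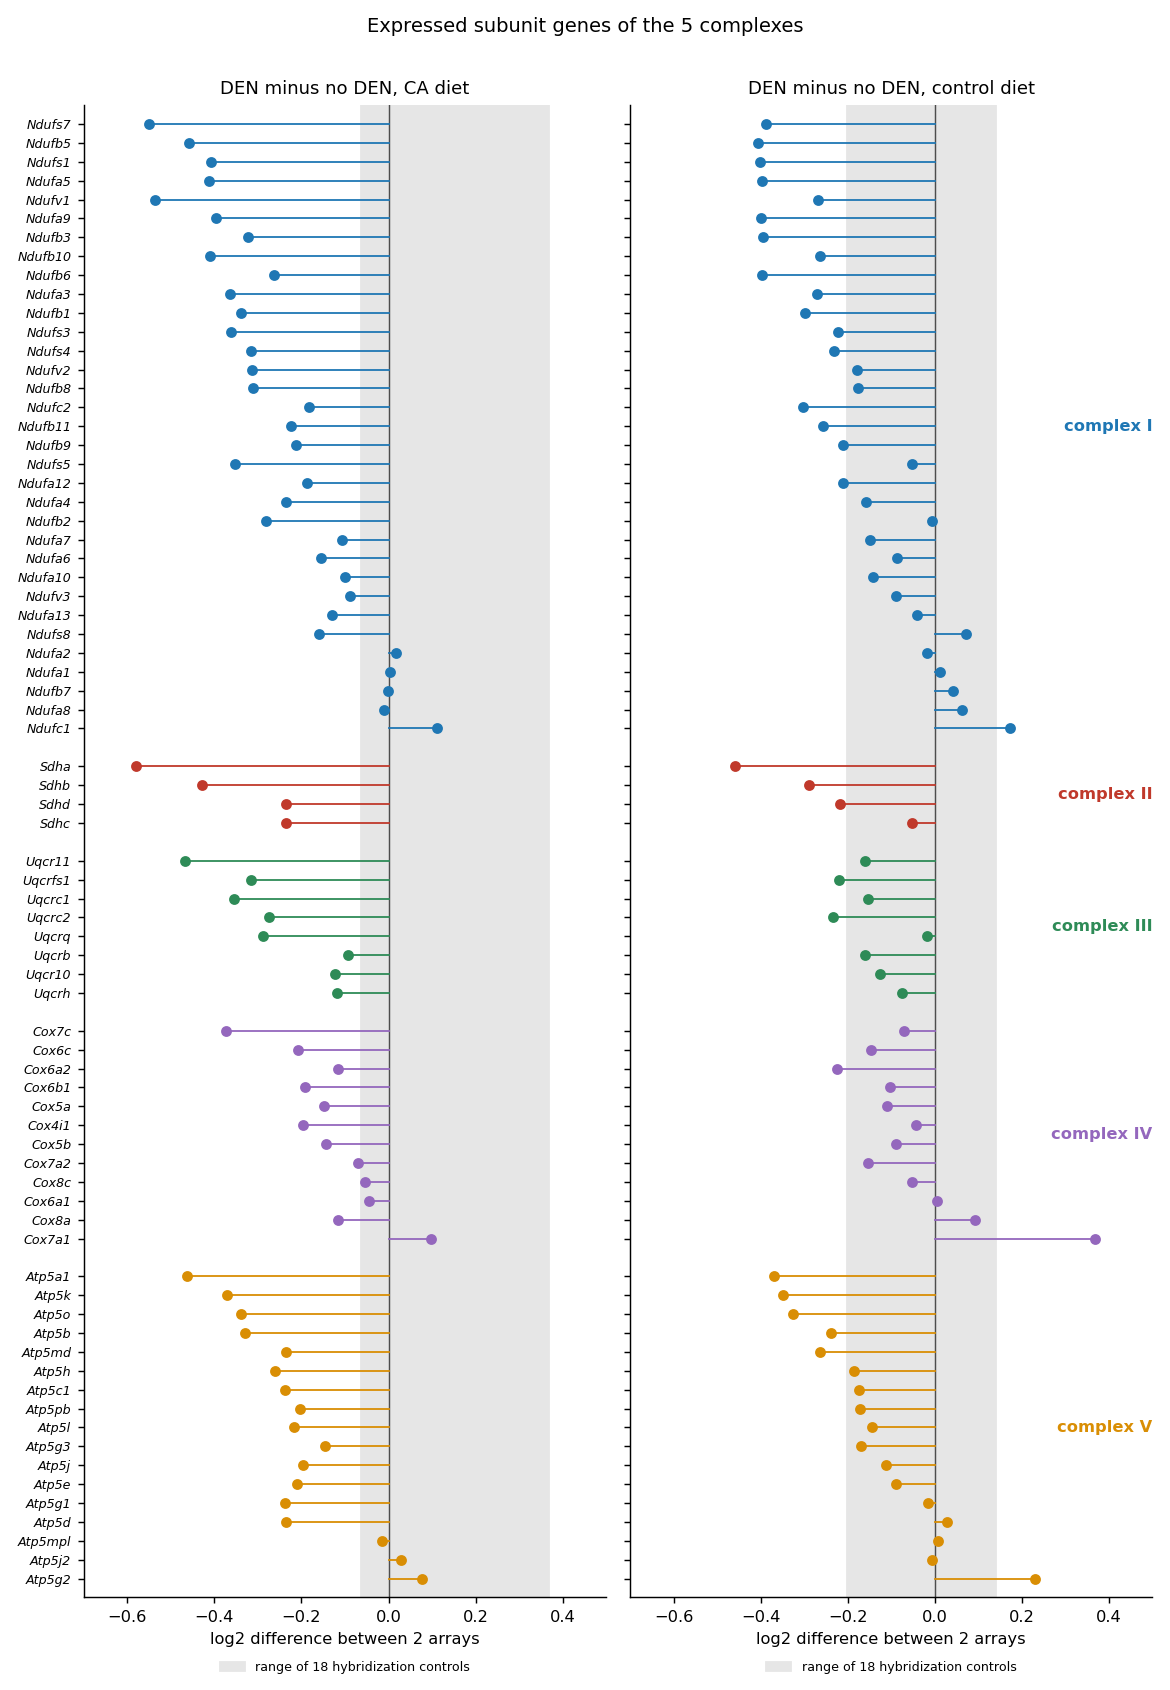
Log2 difference between the DEN array and the array without DEN for each of the 74 expressed subunit genes, on the CA diet (left) and on the control diet (right), grouped by complex and sorted by the mean of both differences. Grey bands show the range of the 18 hybridization controls; 68 points on the left and 63 on the right lie below 0.

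None of the members passed a 1.5-fold limit, a log2 difference of 0.585, in the DEN comparison on either diet. Over all expressed genes 6.00% were lower by that much on the CA diet and 4.32% on the control diet, and 10.3% and 11.1% were higher by that much. In DEN livers on the CA diet against livers with neither treatment 3 members were at least 1.5-fold lower, Sdha, Ndufa5 and Ndufs7, as were 6.84% of all expressed genes, and no member was higher by that much (12.1% of all). The other probe sets of these genes over the expression limit differed by -0.51, -0.31 and -0.48 in that comparison, short of 1.5-fold.

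The largest difference among the hybridization controls was 0.370 on the CA diet and 0.203 on the control diet. These controls carry the error of hybridization and scanning, and neither the spread between mice nor that between extracts. Beyond them, 13 members were lower after DEN on the CA diet (12.8% of all expressed genes were), and 28 on the control diet (22.4% of all). On the CA diet the controls themselves leaned upwards, and 63 members lay below the lowest control (41.3% of all expressed genes did).

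**Figure D2:**
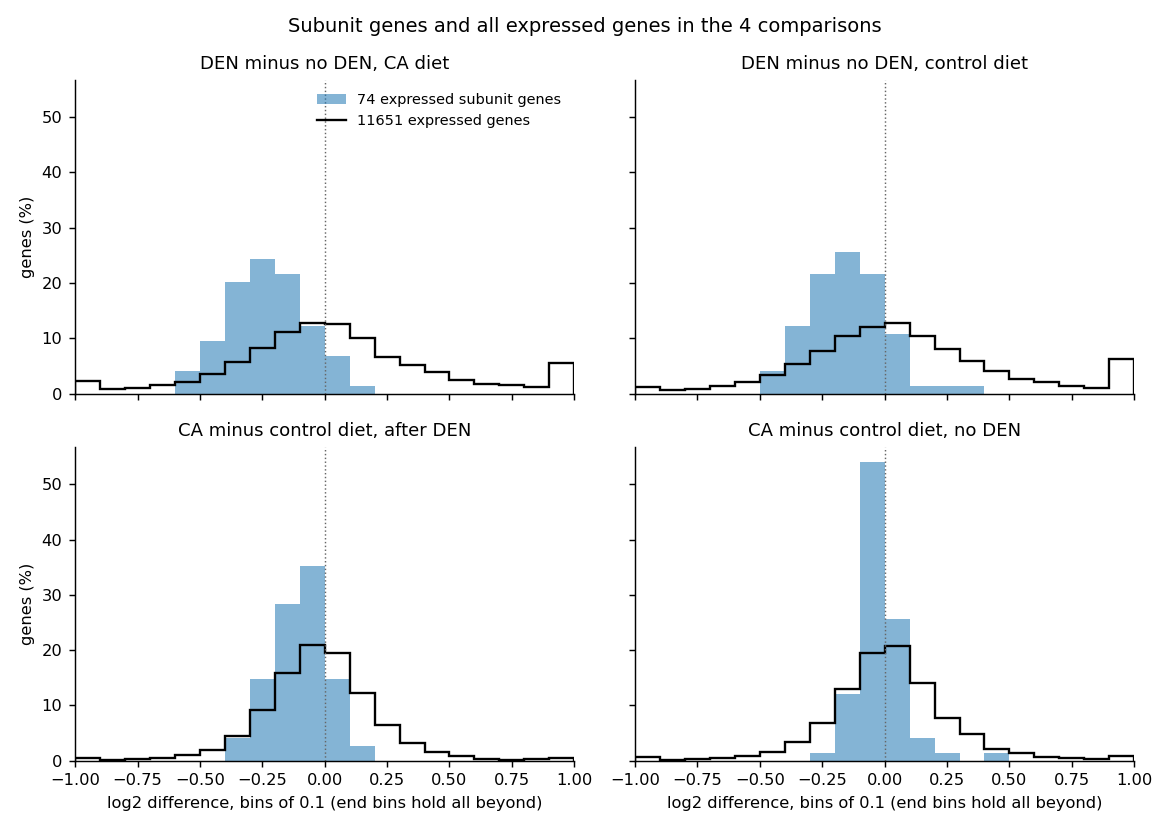
Share of the 74 expressed subunit genes (blue bars) and of the 11651 expressed genes (black outline) in bins of 0.1 of the log2 difference, for DEN against no DEN (top) and the CA against the control diet (bottom). In the upper panels 68 (CA diet) and 63 (control diet) of the members lie left of 0, with medians of -0.23 and -0.16.

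The 4 genes of complex II, succinate dehydrogenase, were lower on both DEN arrays than on both other arrays. Sdha encodes the flavoprotein that oxidises succinate, and its level on the log2 scale was 11.09 in DEN livers on the CA diet and 11.33 in DEN livers on the control diet, against 11.67 on the CA diet and 11.79 on the control diet without DEN. The groups did not overlap, and Sdha was 1.49-fold lower after DEN on the CA diet and 1.38-fold lower on the control diet. Between DEN livers on the CA diet and livers with neither treatment it was 1.62-fold lower (-0.70), the largest difference of any member to the lower side. Its other probe set over the limit of 4.855 differed by -0.51 in that comparison. Sdhb, the iron-sulfur subunit that passes electrons on, read 11.24 and 11.42 on the DEN arrays with CA and control diet, against 11.67 and 11.71 on the arrays without DEN in the same order of diets. Both genes are catalytic, and their median differences were -0.50 on the CA diet and -0.37 on the control diet. The membrane anchors Sdhc and Sdhd had medians of -0.24 and -0.14. Sdhc differed by -0.23 after DEN on the CA diet and by -0.05 on the control diet, and Sdhd by -0.24 and -0.22. The other probe set over the limit differed by -0.31 and -0.24 for Sdhc and by -0.18 and -0.33 for Sdhd. That of Sdha differed by -0.45 and -0.37, so the gap between catalytic genes and anchors varied with the probe set.

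Among the 33 expressed genes of complex I the median difference after DEN was -0.26 on the CA diet and -0.21 on the control diet, and 26 of them were lower on both DEN arrays than on both others. The 6 core subunits, which carry the flavin and the iron-sulfur clusters, had medians of -0.39 and -0.25, and the 27 accessory subunits -0.22 and -0.18. Ndufs7 carries the last iron-sulfur cluster before ubiquinone, and it read 10.37 and 10.60 on the DEN arrays with CA and control diet, against 10.93 and 10.99 without DEN. Ndufv1, which binds NADH and the flavin, read 10.90 and 11.21 in DEN livers on the CA and the control diet, against 11.44 and 11.47 in livers without DEN. In both genes the DEN arrays were lower than the others without overlap, and the CA diet array was the lower of the DEN arrays. Ndufs1, the largest core subunit, differed by -0.41 on the CA diet and -0.40 on the control diet. Ndufs3, Ndufv2 and Ndufs8, other core subunits, differed by -0.36, -0.31 and -0.16 on the CA diet. On the control diet they differed by -0.22, -0.18 and 0.07, and the sign of Ndufs8 there was negative with each array centred on its median. The 6 probe sets of Ndufs8 did not have the same sign on the control diet, where 4 of them lay below 0.

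Ndufa5, an accessory subunit of the matrix arm, stood at 9.97 and 10.19 in DEN livers on the CA and the control diet, against 10.38 and 10.58 without DEN. The difference after DEN was -0.41 on the CA diet and -0.40 on the control diet, and each diet pair added about -0.20 (-0.22 after DEN and -0.20 without). Its other probe set differed by -0.31 and -0.21 after DEN. For the CA diet that probe set differed by -0.10 after DEN and by 0.0059 without, so the diet step varied with the probe set. Ndufb5, of the membrane arm, read 11.05 and 11.13 on the DEN arrays, against 11.51 and 11.54 on the CA and control diet arrays without DEN. Ndufa9, an accessory subunit next to the site of ubiquinone binding, differed by -0.40 on both diets. Ndufb3, Ndufb6, Ndufb10, Ndufa3 and Ndufb1 differed by between -0.41 and -0.26 on both diets. On the CA and the control diet the other probe set over the limit differed by -0.21 and -0.07 for Ndufb6, and by -0.36 and -0.30 for Ndufa3. The remaining genes were closer to 0: Ndufs4, Ndufb8, Ndufc2, Ndufb11, Ndufb9, Ndufa12 and Ndufa4 lay between -0.32 and -0.16. Ndufa4 is named for complex I and has since been assigned to complex IV. Ndufs5 and Ndufb2 were lower on the CA diet (-0.35 and -0.28) and close to 0 on the control diet (-0.05 and -0.0057, Ndufb2 above 0 under quantile normalization and loess centring).

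Ndufa6, Ndufa7, Ndufa10, Ndufa13 and Ndufv3 differed by -0.15 to -0.04 on both diets (Ndufa13 above 0 on the control diet and Ndufv3 above 0 on the CA diet under loess centring). Ndufa1, Ndufa2, Ndufa8 and Ndufb7 stayed within 0.07 of 0 on both diets, and their sign depended on the scaling. The other probe set of Ndufb7 differed by -0.40 on the CA diet and -0.07 on the control diet. Ndufc1, an accessory subunit of the membrane arm, had the opposite order: 11.36 and 11.39 in DEN livers on the CA and the control diet, against 11.25 and 11.21 in livers without DEN. It was higher after DEN by 0.11 and 0.17, and its other probe set by 0.15 and 0.18. With median centring the differences of Ndufc1 were close to 0, at 0.03 and 0.01, and under quantile normalization they were 0.17 and 0.18.

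**Figure D3:**
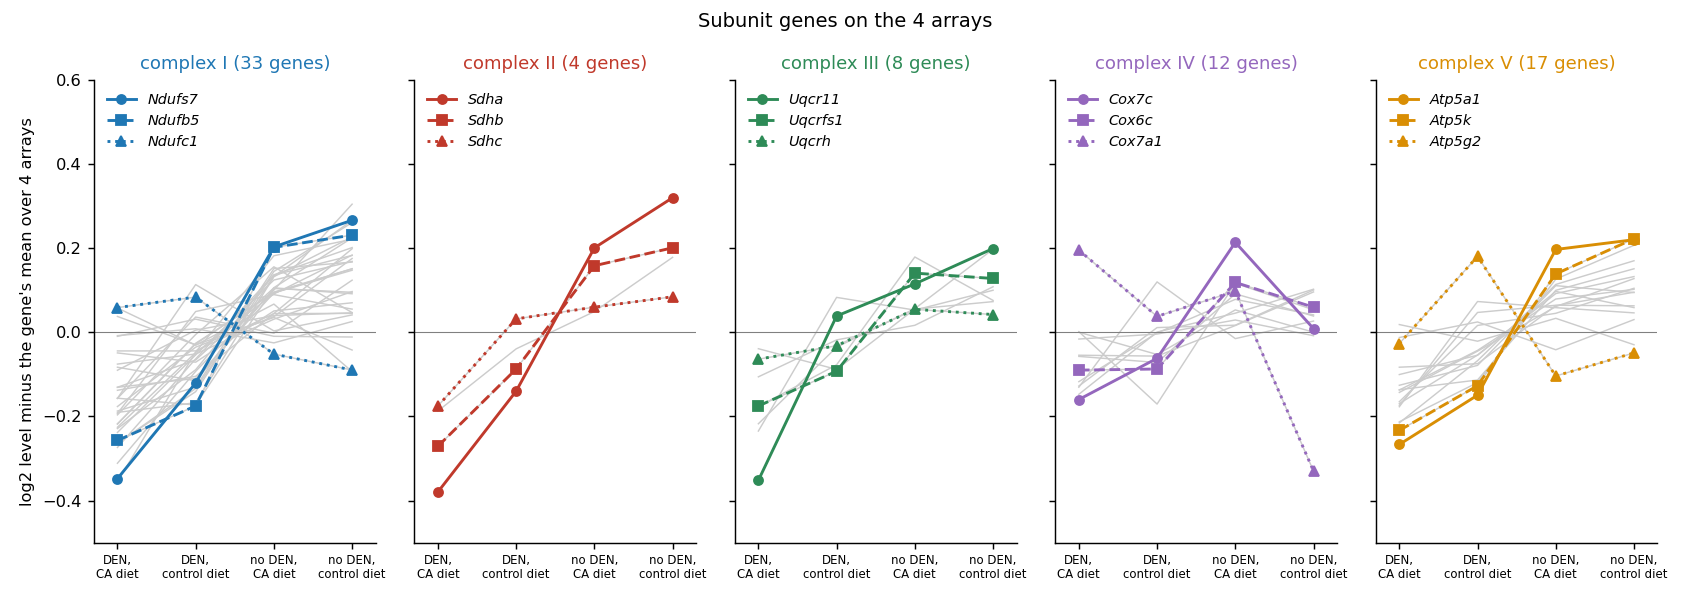
Log2 level of each expressed subunit gene minus its own mean over the 4 arrays, with DEN arrays left and arrays without DEN right, 1 panel per complex. Coloured lines mark the 2 genes with the lowest and the gene with the highest mean DEN difference of a complex, and grey lines all others; Sdha reaches -0.38 on the DEN array with CA diet and 0.32 on the control diet array.

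In complex III all 8 genes lay below 0 after DEN on both diets, and 7 were lower on both DEN arrays than on both others (Uqcrb and Uqcrq depend on the scaling, as given below). The median difference was -0.28 on the CA diet and -0.16 on the control diet. Uqcrfs1, the Rieske iron-sulfur protein, differed by -0.32 on the CA diet and -0.22 on the control diet. Uqcrc2, a core protein that shapes the matrix side, read 11.00 and 11.18 in DEN livers on the CA and the control diet, against 11.28 and 11.42 without DEN. Uqcrc1, its partner, differed by -0.36 on the CA diet and -0.15 on the control diet. Uqcr11 had 11.18 on the DEN array with CA diet, against 11.58 on the DEN array with control diet and 11.65 and 11.74 on the CA and control diet arrays without DEN, so that a single array stood apart from the other 3. Uqcrq, a ubiquinone-binding subunit, behaved alike, with 11.50 on the DEN array with CA diet, against 11.82, 11.79 and 11.84 on the DEN control diet, CA diet and control diet arrays. Uqcrb, Uqcr10 and Uqcrh differed by between -0.16 and -0.07 on their brightest probe sets. Another probe set of Uqcrb over the limit differed by -0.30 on the CA diet and -0.31 on the control diet. Those of Uqcr10 differed by -0.46 and -0.30 on the CA diet and by -0.29 and -0.16 on the control diet. That of Uqcrh differed by -0.0017 and -0.09. Under loess centring the brightest probe set of Uqcrq lay above 0 on the control diet and that of Uqcrb above 0 on the CA diet.

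Complex IV, cytochrome c oxidase, was closest to 0 after DEN when each gene was read from its brightest probe set. The 12 expressed genes had a median of -0.13 on the CA diet and -0.08 on the control diet, and 8 were lower on both DEN arrays than on both others. The 9 genes of the isoforms found in liver or in all tissues had medians of -0.15 and -0.09. Cox4i1, the common form of subunit 4, read 12.24 and 12.35 in DEN livers on the CA and the control diet, against 12.43 and 12.40 in livers without DEN. Cox6a1, the liver form of subunit 6a, read 13.84 and 13.85 on the DEN arrays, against 13.88 and 13.84 on the arrays without DEN. Cox4i1 was thus slightly lower after DEN (above 0 on the control diet under loess centring), and the 4 levels of Cox6a1 differed by less than 0.05. The liver form Cox7a2 differed by -0.07 on the CA diet (above 0 under loess centring) and -0.15 on the control diet, Cox6b1 by -0.19 and -0.10, Cox6c by -0.21 and -0.15, Cox5a by -0.15 and -0.11, and Cox5b by -0.14 and -0.09 (above 0 on the control diet under loess centring). Cox8a read 10.70 and 10.95 on the DEN arrays, against 10.82 and 10.86 on the arrays without DEN. Its differences after DEN had opposite signs, -0.12 on the CA diet and 0.09 on the control diet, the second of them below 0 with median centring. Cox7c was read by a dim probe set with levels from 5.58 to 5.96 and differed by -0.37 and -0.07. Some other probe sets over the limit were lower by more. On the CA and the control diet they differed by -0.28 and -0.25 for Cox7a2, and by -0.17 and -0.41 for Cox6c. For Cox5a they differed by -0.28 and -0.25, and by -0.20 and -0.10. Those of Cox5b lay between -0.32 and -0.21, and between -0.34 and 0.0033. Those of Cox6a1, Cox6b1 and Cox8a differed by -0.06 and 0.03, -0.04 and -0.05, and -0.09 and 0.05.

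Of the 7 genes for isoforms that muscle, lung or testis use in place of the common ones, 4 lay under the limit and 3 over it. Those under it were Cox4i2, the lung form, Cox6b2, a testis form, Cox7b2 and Cox8b, a muscle form, with mean levels of 4.72, 4.57, 2.66 and 4.72. Ndufb4 of complex I was the fifth gene under the limit (2.66), and probe sets that its symbol shares with other family members were left out. Cox6a2, the heart and muscle form of subunit 6a, had 5.81 and 5.63 in DEN livers on the CA and the control diet, against 5.92 and 5.86 without DEN, and its other probe set stood at 2.93 on average. Cox7a1, the heart and muscle form of subunit 7a, had 5.49 and 5.34 in DEN livers, against 5.40 and 4.97 in livers on the CA and the control diet without DEN. Its lowest value was that of the control diet array, and it was the member with the largest difference to the higher side, 0.37 after DEN on the control diet and 0.43 for the CA diet without DEN. Cox8c, a testis form, stayed between 6.96 and 7.06 on its brighter probe set, while the other differed by -0.52 and -0.27 after DEN. Of 10 striated muscle markers 2 were expressed, Mb at 5.56 to 5.80 and Ckm at 4.83 to 5.10, and of 7 testis markers 2, Prm1 and Prm2. Cox7b is not analysed here.

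**Figure D4:**
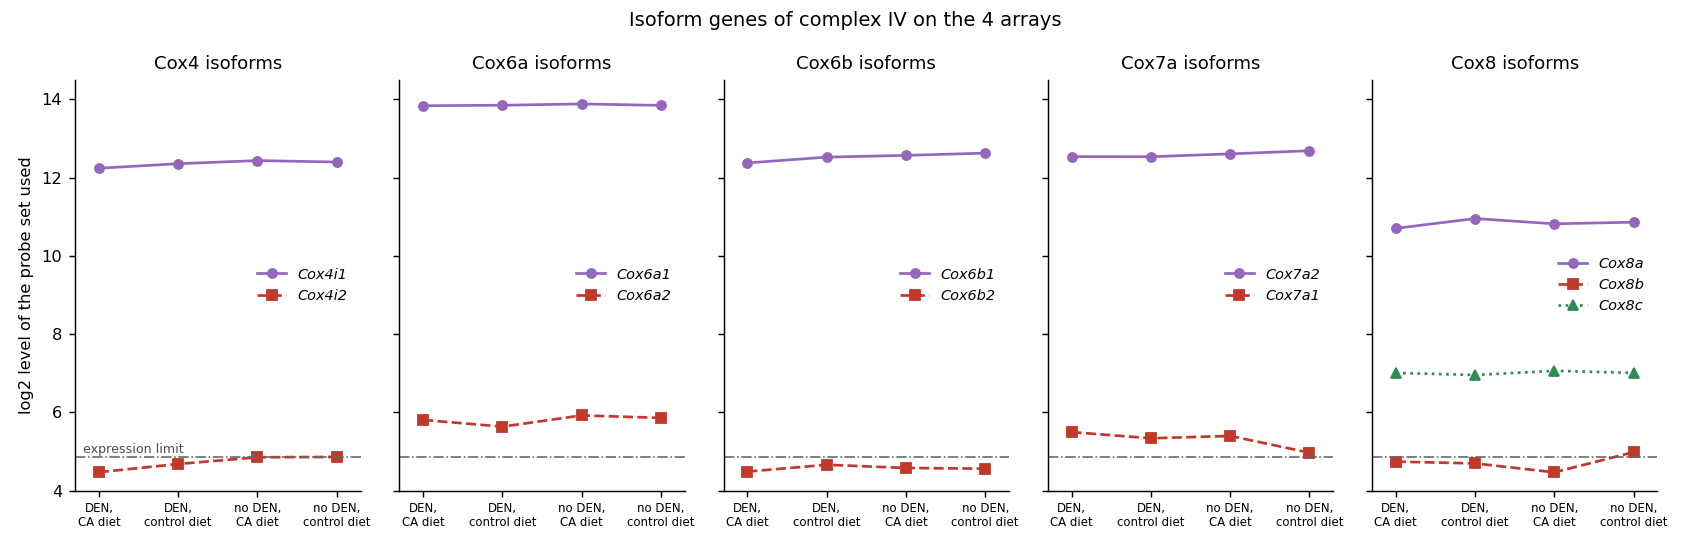
Log2 level of the isoform genes of complex IV on the 4 arrays, DEN arrays left, with the common form as purple circles and the tissue forms as red squares and green triangles. The dash-dotted line is the expression limit of 4.855. The height of a line depends on its probe set, so heights of different genes are not compared; the lines of the common forms run nearly flat.

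In complex V the 17 genes had a median difference of -0.24 after DEN on the CA diet and -0.17 on the control diet, and 13 were lower on both DEN arrays than on both others. Of the catalytic F1 head, Atp5a1 encodes the alpha subunit and read 11.67 and 11.79 in DEN livers on the CA and the control diet, against 12.14 and 12.16 without DEN. Its other 2 probe sets differed by -0.63 and -0.30 on the CA diet and by -0.34 and -0.39 on the control diet. Atp5b, the beta subunit, differed by -0.33 and -0.24, Atp5c1, the gamma subunit, by -0.24 and -0.17, and Atp5e, the epsilon subunit, by -0.21 and -0.09. Atp5d, the delta subunit, differed by -0.24 on the CA diet and by 0.03 on the control diet, where its sign was negative with median centring. Its other probe set differed by -0.33 and -0.14, below 0 on both diets. The 4 genes of the peripheral stalk, which holds the head still, were all lower, with medians of -0.23 and -0.18. Among these, Atp5o, which joins the stalk to the head, read 10.90 and 10.99 in DEN livers, against 11.24 and 11.32 in livers on the CA and the control diet without DEN. Atp5h, Atp5pb and Atp5j differed by -0.26, -0.20 and -0.20 on the CA diet and by -0.19, -0.17 and -0.11 on the control diet.

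The small membrane subunits were uneven. Atp5k read 11.16 and 11.27 in DEN livers, against 11.54 and 11.62 in livers on the CA and the control diet without DEN, with no overlap. Atp5l and Atp5md differed by -0.22 and -0.24 on the CA diet and by -0.15 and -0.26 on the control diet. Atp5j2 and Atp5mpl stayed within 0.03 of 0, with a sign that depended on the scaling. Atp5g1, Atp5g2 and Atp5g3 encode the same mature c subunit, the protein of the rotating ring. Atp5g3 read 13.12 and 13.13 in DEN livers, against 13.26 and 13.30 without DEN, and Atp5g1 10.58 and 10.80, against 10.82 and 10.82. Atp5g2 read 10.12 and 10.33 in DEN livers, against 10.05 and 10.10 in livers on the CA and the control diet without DEN. Thus Atp5g3 was lower and Atp5g2 higher on both DEN arrays, by differences of -0.15 and 0.08 on the CA diet and -0.17 and 0.23 on the control diet. With median centring Atp5g2 lay below 0 on the CA diet.

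Other probe sets of the same genes were largely alike in sign in the DEN comparisons, and less so in the diet comparisons. The members have 160 probe sets, of which 139 were over the limit, and 118 of these lay below 0 in both DEN comparisons (37.2% of all 19472 named probe sets over the limit did). Of 42 members with several probe sets over the limit, 31 had every one of them below 0 in both, as had 21.2% of all 4816 such genes. Every probe set over the limit shared a sign in 39 of the 42 after DEN on the CA diet and in 36 on the control diet. For the CA against the control diet they did so in 27 after DEN and in 26 without DEN. The same shares over all genes are not given here. Members at or over their median level of 11.32 had median differences of -0.21 and -0.16 on the CA and the control diet, and those under it -0.27 and -0.15. The dimmer members were thus somewhat lower on the CA diet, and nearly the same on the control diet. Bright genes in general were also somewhat lower after DEN, and the 426 expressed genes at or over 11.32 had medians of -0.14 on the CA diet and -0.07 on the control diet. Loess centring, which takes out a trend with the level, left the members at medians of -0.13 and -0.09, and both DEN arrays were then lower in 63.5% of members and in 31.1% of all expressed genes.

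Scaling moved the common level. Centring, which subtracts from an array its median over the expressed genes, shifted the median of all genes by more than 0.1 in the DEN comparison on the control diet, to -0.13 in place of 0.035. The members' median minus that of all expressed genes, which such a shift cannot change, was -0.23 on the CA diet and -0.19 on the control diet. It was -0.18 and -0.12 under quantile normalization and -0.14 and -0.10 under loess centring. Both DEN arrays were lower in 93.2% of members and 45.0% of all genes after centring, and in 78.4% and 35.5% after quantile normalization.

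The CA diet alone went with differences near 0. For the CA against the control diet without DEN the members had a median of -0.04, against 0.015 for all expressed genes, and 50 of 74 lay below 0 (46.7% of all genes). No member was 1.5-fold lower (1.77% of all) or higher (2.49% of all), and no member was lower by more than the hybridization controls (0.305), as were 7.28% of all genes. Complex II had the lowest median, -0.08, with Sdhd at -0.13 and Sdha at -0.12. Other probe sets over the limit differed by -0.13 for Sdhd, -0.06 for Sdha and 0.08 for Sdhc. Ndufa5 (-0.20), Ndufc2 (-0.15), Ndufb9 (-0.14) and Uqcrc2 (-0.14) were the lowest of the other complexes, and Ndufa8 (0.16) the highest of complex I. Other probe sets over the limit differed by 0.0059 for Ndufa5, -0.17 to -0.009 for Ndufc2, -0.04 for Ndufb9 and -0.14 for Uqcrc2. Complex IV stood on the other side of 0 with a median of 0.05, and 8 of its 12 expressed genes lay above 0, among them the tissue forms Cox7a1, Cox6a2 and Cox8c and the dim Cox7c. Under median centring 6 of the 12 lay above 0 and the median was 0.0065.

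After DEN the CA diet against the control diet gave a median of -0.10 over the members, against -0.02 over all expressed genes, and 61 of 74 lay below 0 (54.9% of all). The count below 0 was 50 under quantile normalization, 48 under median centring and 52 under loess centring, with medians of -0.06, -0.05 and -0.07. No member was 1.5-fold lower (1.77% of all) or higher (1.34% of all). Beyond the hybridization controls (0.267), 4 members were lower (11.3% of all genes), namely Uqcr11 (-0.39), Uqcrq (-0.32), Ndufv1 (-0.31) and Ndufs8 (-0.27). Complex II had a median of -0.20, with Sdha at -0.24 and Sdhc at -0.21. This rested on the brightest probe sets: the others over the limit differed by -0.14 for Sdha, 0.0077 for Sdhc and 0.02 for Sdhd. In complex V, Atp5d (-0.25), Atp5g1 (-0.22) and Atp5g2 (-0.21) were the lowest. Complexes I, III and V had medians of -0.10, -0.09 and -0.10, and complex IV -0.0073, a value that lay above 0 under quantile normalization and both forms of centring. The core subunits of complex I had a median of -0.21, and the accessory subunits -0.06.

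The diet differences without and after DEN share no array. Their difference had a median of -0.06 over the members and -0.04 over all expressed genes, and with median centring the members' median was 0.02. Across the 74 members the diet differences had a Pearson correlation of 0.45, as a description. In 40 members all 4 comparisons lay below 0, which held for 13.7% of all expressed genes. DEN livers on the CA diet against livers with neither treatment, a comparison that shares its arrays with the others, had a median of -0.25 (all expressed genes 0.012), and 66 of 74 members lay below 0 (48.4% of all).

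Of 5 expressed genes of the pathway that the name rule leaves out, 3 lay below 0 after DEN and 2 above it on both diets, and Atpif1 passed 1.5-fold. Atpif1, the inhibitor that keeps the ATP synthase from running backwards, read 9.28 and 9.38 in DEN livers on the CA and the control diet, against 8.08 and 8.28 without DEN. It was higher after DEN by 1.21 and 1.10, on a single probe set over the limit. Cox7a2l, which joins complexes III and IV, was higher by 0.39 and 0.36, and its other 2 probe sets by 0.06 to 0.20. Cycs, cytochrome c, differed by -0.31 and -0.37, Cyc1, cytochrome c1 of complex III, by -0.36 and -0.22, and Ndufab1, the acyl carrier protein of complex I, by -0.12 and -0.09. The 13 subunits encoded by mitochondrial DNA are not analysed here.

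Most assembly factors of complex I and most TCA cycle enzymes lay below 0 after DEN. Of 13 expressed assembly factors of complex I, 12 lay below 0 after DEN on the CA diet and 11 on the control diet (medians -0.20 and -0.27). Ndufaf4 read 8.35 and 8.50 in DEN livers, against 9.58 and 9.46 in livers on the CA and the control diet without DEN, and was the only member of this list past 1.5-fold in these comparisons. Its second probe set differed by -1.21 and -0.71. Ecsit, an assembly factor that also takes part in innate immune signalling, differed by -0.58 and -0.54. The 28 expressed assembly factors of complexes II to V were nearly balanced on the CA diet, with 15 below 0 and a median of -0.03, and 19 lay below 0 on the control diet with a median of -0.12. Of these, Ttc19 passed 1.5-fold lower on the CA diet (-0.69), with other probe sets at -0.48 and -0.10, and Coa6 differed by -0.47 and -0.51. Of 12 TCA cycle enzymes 10 lay below 0 on both diets (medians -0.34 and -0.25). Idh3a, a subunit of isocitrate dehydrogenase, was lowest on the CA diet (-0.79, past 1.5-fold), and Sucla2, of succinyl-CoA synthetase, on the control diet (-0.51). Fh1, fumarase, was 1.5-fold lower for the CA diet after DEN (-0.62).

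The genes of the coactivators PGC-1 alpha and PGC-1 beta were lower in the DEN livers. Ppargc1a, PGC-1 alpha, read 6.14 and 6.68 in DEN livers on the CA and the control diet, against 7.10 and 7.81 without DEN. The difference was -0.97 and -1.12 after DEN, and -0.55 and -0.71 for the CA diet after and without DEN. The other 4 probe sets differed by -0.95 to -0.46 after DEN. Ppargc1b, PGC-1 beta, read 6.95 and 6.90 in DEN livers, against 8.31 and 8.27 in livers on the CA and the control diet without DEN, on its only probe set. Both genes were thus lower on the DEN arrays without overlap, Ppargc1a also on the CA diet, and Ppargc1b differed by no more than 0.05 between diets. The other regulators were mixed. Nrf1 differed by 0.09 and 0.43, Gabpa, the DNA-binding subunit of GABP, by -0.28 and -0.33, Yy1 by -0.15 and 0.17, and Tfam, the packaging factor of mitochondrial DNA, by -0.23 and -0.08. Tfb2m, an initiation factor of mitochondrial transcription, differed by -0.38 and -0.49. Gabpb1 was higher past 1.5-fold on the control diet (0.88, with its other probe set at -0.09). The 14 regulators had medians of -0.17 on the CA diet and -0.04 on the control diet, and 2 of them passed 1.5-fold lower in each.

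Carriers and porins of the mitochondrial membranes were close to 0, with medians of -0.09 and -0.04 over 11 genes. Among them Slc25a4, the muscle-type ADP/ATP carrier, read 7.63 and 7.44 in DEN livers, against 6.59 and 6.53 in livers on the CA and the control diet without DEN, and was higher by 1.04 and 0.91. Slc25a5, the carrier form that is common in liver, differed by -0.12 and -0.05. Slc25a10, the dicarboxylate carrier, was lowest (-0.49 and -0.40).

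**Figure D5:**
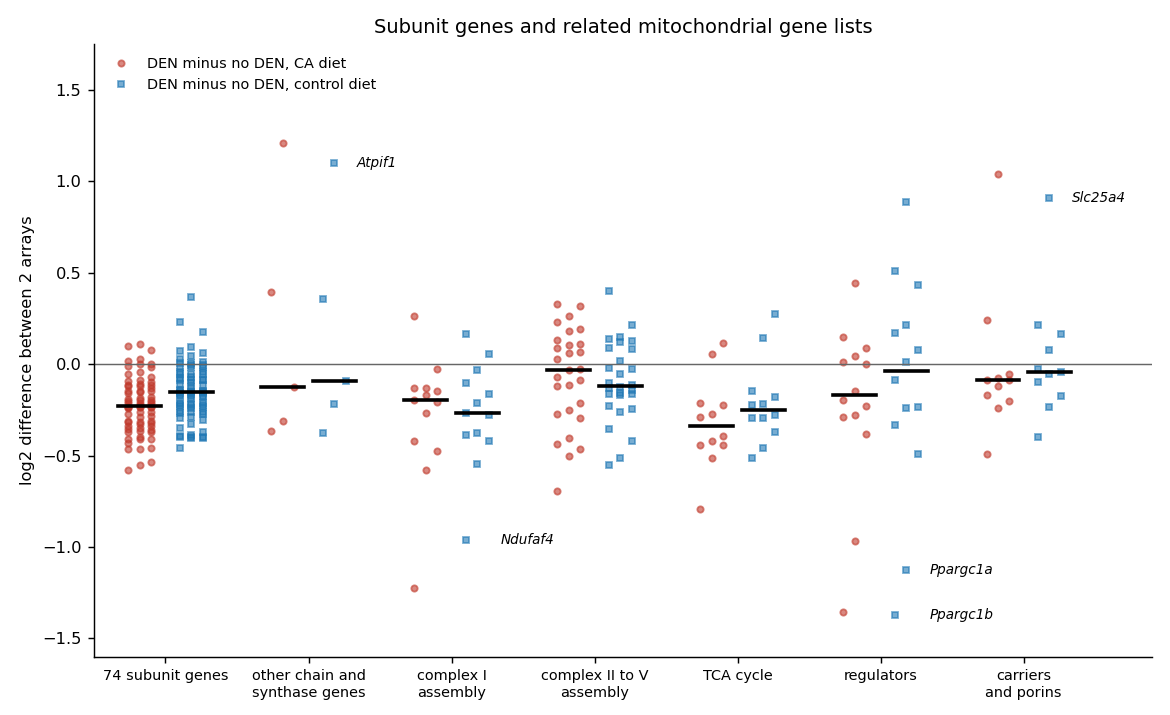
Log2 difference between the DEN array and the array without DEN for the 74 expressed subunit genes and for the expressed genes of 6 related lists, on the CA diet (red circles) and the control diet (blue squares), each point a gene and each black bar a median. Ppargc1a, Ppargc1b and Ndufaf4 lie near or below -1 on the control diet, and Atpif1 and Slc25a4 near 1.

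Markers of other cells also differed between the arrays. All 9 macrophage markers were expressed and had medians of 0.46 and 0.66 after DEN on the CA and the control diet. Their summed linear level was 8556 and 6487 in DEN livers on the CA and the control diet, against 4915 and 3194 in livers without DEN. Of 8 dendritic cell and MHC class II markers 6 were expressed, with medians of 1.08 and 1.46 and sums of 2461 and 2506, against 1014 and 756. Cholangiocyte markers (3 of 6 expressed) had medians of 1.53 and 1.31, endothelial markers (7 of 8) 0.41 and 0.30, stellate and fibroblast markers (9 of 9) 0.17 and 0.64, and the B and plasma cell markers expressed (2 of 5) had opposite signs, Jchain at 0.91 and 2.41 and Mzb1 at -0.22 and -0.05. T and NK cell markers (3 of 6) stood at -0.02 and -0.11, brown adipocyte markers (4 of 6) at 0.42 and 0.05, muscle markers at 0.08 and -0.09 and testis markers at 0.04 and -0.01. Adipocyte markers (3 of 5) stood at 1.38 and 1.38, with the adipocyte hormone gene Adipoq between 2.43 and 3.03, close to the lowest levels of the array. The 7 hepatocyte markers had medians of -0.48 and -0.12 and a summed linear level of 107789 and 110783 in DEN livers, against 118546 and 116746 in livers without DEN. Within that list Alb differed by 0.08 and 0.04, and Tat, a hormone-responsive aminotransferase, by -1.65 and -0.45. The part of these cell types in the lower levels of the subunit genes was not tested.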

How the data were processed

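The deposited values are log2 expression levels, for which the authors used Partek 6.5 and the RMA method (per the submitters' processing notes), with RNA labelled by a biotin dendrimer kit, per the labels' protocols. RMA corrects background, draws the distributions of the arrays together and summarises probes, so a change shared by most genes would be removed. Of 45101 probe sets, 34958 had 1 symbol in the platform annotation, 932 several (left out) and 9211 none. RefSeq matched 34754 by gene identifier and changed 0 symbols.

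A gene was read from the brightest of its probe sets by 4-array mean, and was called expressed from 4.855 on. Differences of 2 arrays were computed with pandas 2.3.3 and numpy 2.4.6, and loess centring (fraction 0.3) with statsmodels 0.14.6. The steps were tested on simulated data. With 1 array per group there was no spread between replicates, and no test was made. Each comparison is described by medians and by counts beside the same over all 11651 expressed genes, with a 1.5-fold limit. The members and lists were chosen with earlier results of these data known. The rule for named genes took, per complex and comparison, up to 3 expressed members with the largest difference each way, every member past 1.5-fold, every tissue isoform, every member under the limit, the Sdh genes, and up to 3 genes of each related list each way. The other members are given so that each complex is complete, and a few further genes of the related lists and the marker lists were named after their values were seen. Alternatives were other filters, normalizations, probe set rules and a floor on low values.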

Additional observations from a re-analysis of the deposited data

Results flagged for a closer look

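Members whose difference had opposite signs under the same contrast on the other diet or treatment are given here where both values exceeded the SD of the hybridization controls, a limit chosen after the data were seen. The difference between the values was not tested in any of them. Cox8a differed by -0.12 for DEN against no DEN on the CA diet and by 0.09 on the control diet, where median centring turned the sign. Cox7c differed by -0.10 for the CA against the control diet after DEN and by 0.21 without DEN, on a dim probe set. Ndufs5 differed by -0.19 for the CA against the control diet after DEN and by 0.11 without DEN. Uqcrc1 differed by -0.10 for the CA against the control diet after DEN and by 0.10 without DEN, and the value after DEN lay within the SD of the controls under quantile normalization (-0.05), median centring (-0.06) and loess centring (-0.07). Median centring or quantile normalization also brought a value of Cox8a, Cox7c and Ndufs5 within that SD.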

How the results depend on the processing

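No paired analysis was made, and each group has 1 array. The alternatives were all genes unfiltered, a stricter filter (6.633, the upper quartile), quantile normalization, subtraction of an array's median over expressed genes (median centring), loess centring, the mean over the probe sets of a gene, every probe set alone, cross-hybridising probe sets left out, and low values raised to the limit. Of 252 medians and counts (at 1.5-fold and 2-fold) recomputed for the members as a whole, 238 stayed within the SD of the hybridization controls or within 1.5 times the count, 13 moved and 1 reversed. Most of the 252 were fold counts that were 0 in the main setting, so the 238 says little about how stable the medians were. Median centring gave members' medians of -0.32 for the DEN comparison on the control diet and -0.37 for DEN with CA diet against neither, and 0.0187, reversed, for the difference of the diet differences. It also put 1 member 1.5-fold lower after DEN on the control diet (8.59% of all genes), 3 on the CA diet (7.66% of all) and 11 in DEN with CA diet against neither (10.1% of all), and left 1 member with both DEN arrays higher (23.1% of all). Without a filter 1 member was 1.5-fold lower after DEN on the control diet (3.82% of all). With every probe set alone the counts of 1.5-fold lower were 1 after DEN on the CA diet (6.37% of all) and 6 in DEN with CA diet against neither (7.18% of all), and both DEN arrays were lower in 109 of 139 probe sets (30.3% of all). In DEN with CA diet against neither, loess centring left 1 member 1.5-fold lower (6.72% of all) and the mean over probe sets 0 (6.52% of all). Loess centring gave 7 members with both DEN arrays higher (32.9% of all). The median of complex IV for the CA diet after DEN turned to 0.0108 under quantile normalization, 0.0360 under median centring and 0.0161 under loess centring. Precision is limited by 1 array per group and by pools without a known spread between mice.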
